A study of Mus musculus with 18 samples.

Results

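The guanylate-binding proteins are a family of large GTPases, and 10 of their genes were followed here across untreated mouse tumours: Gbp2, Gbp2b and Gbp3 to Gbp10. They were taken by symbol from the 26538 genes of the deposited expression table. The family was chosen with earlier results of these data known. The study ablated a tumour in the mouse and sequenced RNA from the untreated tumour on the side. There were 6 groups of 3 tumours: cryoablation, which freezes tissue, radiofrequency ablation, which heats it, and cryo-thermal therapy, which joins freezing and heating, each given alone or with anti-PD-1. Anti-PD-1 antibodies block the checkpoint receptor PD-1 of T cells. Every group had an ablation, so no group shows a tumour without one. The tumour line, the mouse strain, age and sex, the antibody dose and the time of resection are not given in the sources used here. Nothing in the labels ties a tumour to its own mouse, so p-values measure the spread between these 18 tumours.

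Guanylate-binding proteins are among the genes most strongly induced by interferon gamma. The cytokine binds its receptor, which carries the kinases Jak1 and Jak2, and the signal reaches promoters, with Irf1 among its factors, through GAS elements and interferon-stimulated response elements (ISRE). The proteins assemble on the membranes of vacuoles and on bacteria inside the cell, where they help to break these open, and they feed the caspases of the inflammasome. In tumours their RNA is commonly read as a trace of interferon gamma acting on tumour cells, macrophages and other cells of the tissue.

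The genes lie in 2 clusters. In the order of RefSeq on GRCm38.p6, Gbp5, Gbp7, Gbp3, Gbp2b and Gbp2 neighbour each other on chromosome 3, with 1 other gene between them, and Gbp8, Gbp9, Gbp4, Gbp10 and Gbp6 lie on chromosome 5, with 2 others between them. RefSeq promoter windows, from 250 bases before to 50 after a gene's start, were matched for the 5 genes on chromosome 3. They are shown because interferon signalling acts at such elements. The promoter set used held no window for the 5 genes on chromosome 5, so their motifs were not examined. Each stretch below lies upstream of the start on the plus strand of GRCm38.p6, 5′ to 3′, with matches to the ISRE core or to GAS in capitals.
Gbp5, chr3:142496684-142496905: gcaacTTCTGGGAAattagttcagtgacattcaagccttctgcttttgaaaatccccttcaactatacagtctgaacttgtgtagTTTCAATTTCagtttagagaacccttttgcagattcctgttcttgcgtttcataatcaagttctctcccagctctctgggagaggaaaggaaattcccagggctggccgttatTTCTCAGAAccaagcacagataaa
Gbp7, chr3:142530215-142530307: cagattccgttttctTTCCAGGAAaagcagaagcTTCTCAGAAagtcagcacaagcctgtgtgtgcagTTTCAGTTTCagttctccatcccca
Gbp3, chr3:142559984-142560029: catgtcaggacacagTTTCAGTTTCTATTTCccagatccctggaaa
Gbp2b, chr3:142594695-142594734: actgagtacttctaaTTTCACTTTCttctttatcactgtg
Gbp2, chr3:142620589-142620628: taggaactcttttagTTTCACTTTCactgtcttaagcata

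The ISRE core was searched as GAAA followed, after 2 bases of any kind, by GAAA again, and GAS as TTCNNNGAA, on both strands, with overlapping matches counted. On the strand printed the ISRE core reads as a pair of TTTC. All 5 genes held an ISRE core, which occurred in 3.44% of 32851 promoter windows of the same length. Gbp3 held a pair of overlapping matches in 1 of its 2 windows and 0 in the other. The match began 59 bases before the start in Gbp2, 53 in Gbp7, 137 in Gbp2b and 165 in Gbp5, and 45 and 39 in Gbp3. GAS occurred in 8.30% of windows, and Gbp5 and Gbp7 held 2 matches each, 245 and 52 bases before the start in Gbp5 and 106 and 87 in Gbp7. Both motifs together occurred in 0.454% of windows. Gbp2, Gbp2b and Gbp3 held no GAS letters in these windows, which says nothing of whether a factor acts on them. A match describes the sequence and is no measured binding site.

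Levels are given in FPKM, fragments per kilobase of transcript scaled to the depth of the library. The unit takes account of transcript length and depth. It does not correct for the make-up of a library or for sequence shared between genes. The values of each tumour summed to between 408042 and 442383 FPKM, with 5995 to 7191 genes listed at 0. FPKM values of each family gene were whole multiples of 1 fragment within 1.62e-05 of a fragment, which returned the fragments behind them: 2607 to 32685 per tumour for Gbp2, 191 to 8296 for Gbp4, 707 to 5325 for Gbp9, 3 to 302 for Gbp10 and 0 to 158 for Gbp2b. Relative depth of the libraries lay between 0.987 and 1.02. Tests were run on log2(FPKM + 1) with limma over all 18 tumours and the 12587 genes with a mean of at least 0.5 FPKM. An adjusted p (Benjamini-Hochberg over those genes) under 0.05 counts as passing. Of the 10 genes 9 entered the tests. Gbp2b, with a mean of 0.264 FPKM, did not, and Gbp8 and Gbp10 entered through the groups where they were higher, since their means after cryoablation alone were 0.426 and 0.117 FPKM.

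The hair follicle and keratinocyte list stood highest in 3 tumours. These were replicates 1 and 2 of cryoablation given with anti-PD-1, at mean log2 levels of 3.28 and 3.24, and replicate 1 of cryo-thermal therapy given with anti-PD-1, at 3.68, against at most 2.31 in the others. Medians of the comparisons that use these groups are given with and without them. Of 5 melanocyte markers the summed level was at most 0.447 FPKM in any tumour, with Mlana and Tyr listed at 0 in all tumours of some groups, and 5 epithelial markers summed to between 2.52 and 7.74 FPKM. Collagen and other fibroblast markers summed to between 654 and 2010 FPKM.

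The family's levels spanned a wide range within each tumour, in a nearly fixed order. Gbp2, which is needed to control intracellular parasites such as Toxoplasma, was the highest of the 10 in every tumour and made up 40.2 to 61.7% of the summed FPKM of the family. Gbp8, Gbp10 and Gbp2b ranked 8, 9 and 10 in every tumour. Summed over the 10 genes, the level was 69.6 ± 19.0 FPKM (SD, n = 3) after cryoablation, 209.9 ± 118 after radiofrequency and 436 ± 124 after cryo-thermal therapy. With anti-PD-1 the sums were 186 ± 156, 300.6 ± 138 and 608 ± 48.8 FPKM in the same order. The sums of single tumours ran from 47.7 to 81.8 FPKM after cryoablation, from 78.6 to 309 after radiofrequency and from 352 to 578 after cryo-thermal therapy.

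**Figure D1:**
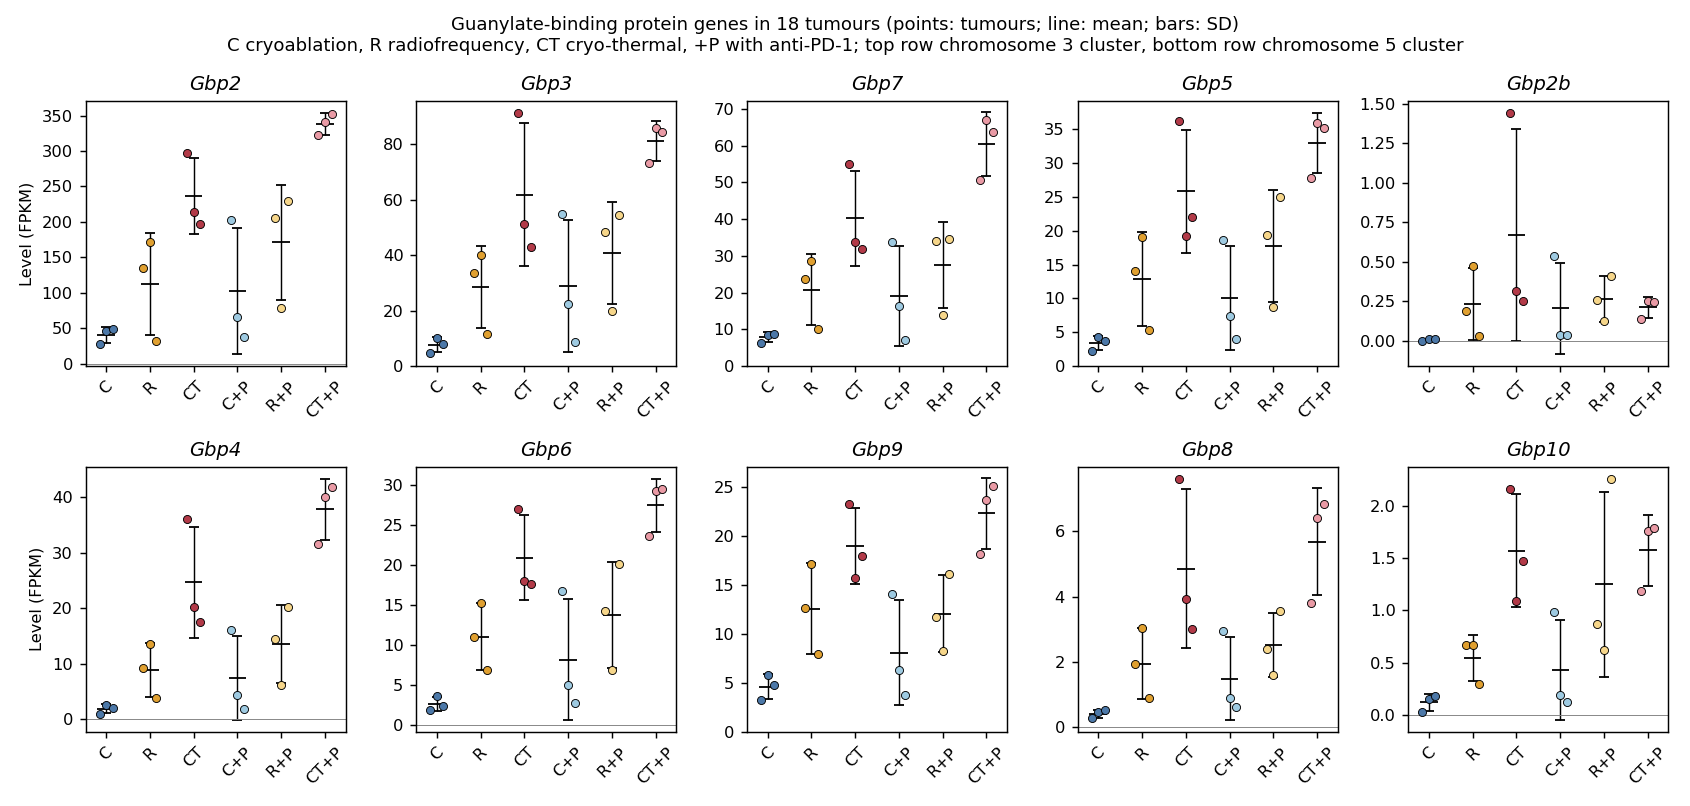
Level in FPKM of the 10 genes in each of 18 tumours, on a separate linear axis per gene; points are tumours, lines are means and bars are SD (n = 3), and C, R, CT and +P stand for cryoablation, radiofrequency, cryo-thermal and anti-PD-1. Cryoablation alone has the lowest mean in all 10 panels, and cryo-thermal therapy with anti-PD-1 the highest in 9; Gbp2b is the exception, with its highest mean after cryo-thermal therapy alone.

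The order of the 6 group means was much the same from gene to gene. Cryoablation alone was lowest for all 10 genes. Cryo-thermal therapy with anti-PD-1 was highest for 9 and cryo-thermal therapy alone ranked 2 for the same 9. Radiofrequency with anti-PD-1 ranked 3 for 8 genes and cryoablation with anti-PD-1 ranked 5 for 9. Most steps in this order were within the spread of the tumours. The groups at ranks 1 and 2 did not overlap for 1 gene, Gbp2, where 10.6% of all genes tested were higher without overlap on adding anti-PD-1 to cryo-thermal therapy. Those at ranks 5 and 6 did not overlap for 3 genes. These were Gbp2b and Gbp8, with cryoablation plus anti-PD-1 at rank 5 (13.6% of all genes higher than after cryoablation alone without overlap), and Gbp3, with radiofrequency at rank 5 (10.6%). At every step between them the tumours of neighbouring groups overlapped for all 10.

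After cryo-thermal therapy, compared with cryoablation, both without antibody, all 9 genes tested were higher, by 4.10 to 13.4 times in mean FPKM. Gbp8 and Gbp10 are counted among them, though they passed the filter through the groups where they were higher. Without these genes the ratios ran from 4.10 to 13.3. Of all genes tested 8.01% were higher and 6.96% lower at the same threshold. The median log2 fold change was 2.52 over the 9 genes and -0.01 over all genes tested. In none of the 9 did the tumours of the groups overlap, which was so for 17.7% of all genes as higher and 17.8% as lower. This comparison asks how the untreated tumour differs with the kind of ablation. In bulk tissue, more cells of a kind that makes these RNAs and more RNA per cell cannot be told apart.

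On chromosome 3, Gbp2 stood at 27.7, 46.2 and 49.0 FPKM after cryoablation and at 298, 215 and 198 FPKM after cryo-thermal therapy. Gbp3 stood at 4.83, 10.3 and 8.03 FPKM and at 91.2, 51.0 and 43.0 FPKM in the same groups. The lowest cryo-thermal tumour was thus far above the highest cryoablation tumour for both genes. Gbp2 rose by 2.52 on the log2 scale (SE 0.61, limma adjusted p = 0.0150) and Gbp3 by 2.83 (SE 0.56, adjusted p = 0.00718). Gbp5, which promotes assembly of the NLRP3 inflammasome, stood at 2.28, 4.33 and 3.68 FPKM after cryoablation and at 36.2, 19.2 and 22.0 FPKM after cryo-thermal therapy. Gbp7, which helps to assemble the phagocyte NADPH oxidase, stood at 6.39, 8.45 and 8.78 FPKM and at 55.0, 33.7 and 31.8 FPKM. Replicate 1 of the cryo-thermal tumours was the highest and replicate 1 of the cryoablation tumours the lowest for each of the 4 genes. Gbp5 rose by 2.57 (SE 0.48, limma adjusted p = 0.00601) and Gbp7 by 2.18 (SE 0.46, adjusted p = 0.00900).

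On chromosome 5, Gbp4 had the largest log2 fold change of the 9. Its level was 0.952, 2.52 and 2.08 FPKM after cryoablation and 36.1, 20.3 and 17.6 FPKM after cryo-thermal therapy. All 3 cryo-thermal tumours lay far above the cryoablation tumours, with a log2 fold change of 3.14 (SE 0.56, limma adjusted p = 0.00555). Gbp6 went from 1.91, 3.61 and 2.32 FPKM to 27.1, 18.0 and 17.7 FPKM, a change of 2.60 (SE 0.46, limma adjusted p = 0.00545). Gbp9 went from 3.28, 5.80 and 4.81 FPKM to 23.3, 15.7 and 17.9 FPKM, a change of 1.84 (SE 0.35, limma adjusted p = 0.00635). Gbp9 had the smallest ratio of mean FPKM of the 9 genes, 4.10, and again no tumours overlapped.

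The 3 genes with the lowest levels were Gbp8, Gbp10 and Gbp2b, and the ratios of the last pair rest on few fragments after cryoablation. Gbp8 went from 0.291, 0.459 and 0.528 FPKM to 7.61, 3.93 and 3.01 FPKM, with a log2 fold change of 1.96 (SE 0.36, limma adjusted p = 0.00555). Gbp10 went from 0.0222, 0.150 and 0.180 FPKM to 2.16, 1.09 and 1.47 FPKM, with a change of 1.19 (SE 0.25, limma adjusted p = 0.00900) that the added 1 FPKM makes smaller than the ratio of mean FPKM, 13.4. Its fragments were 3, 20 and 24 after cryoablation and 288, 148 and 198 after cryo-thermal therapy. Gbp8 had 49, 76 and 88 fragments and then 1264, 666 and 504. No tumours of these groups overlapped for either gene. Gbp2b was listed at 0 in 1 cryoablation tumour and at 0.00915 and 0.00911 FPKM in the others, against 1.44, 0.313 and 0.253 FPKM after cryo-thermal therapy. These were 2 fragments in all against 221, a ratio of 109.9 with an exact 95% interval from 30.1 to 913 that covers counting error only, and no test across tumours was made. Replicate 1 of the cryo-thermal tumours gave 158 of the 221 fragments.

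Leaving out 1 tumour changed some of these calls. Without cryo-thermal replicate 1 the number passing fell to 6, and Gbp2, Gbp7 and Gbp10 missed the threshold with adjusted p of 0.0727, 0.0521 and 0.0528. Without cryoablation replicate 1 it was 8, and the gene lost was Gbp2.

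**Figure D2:**
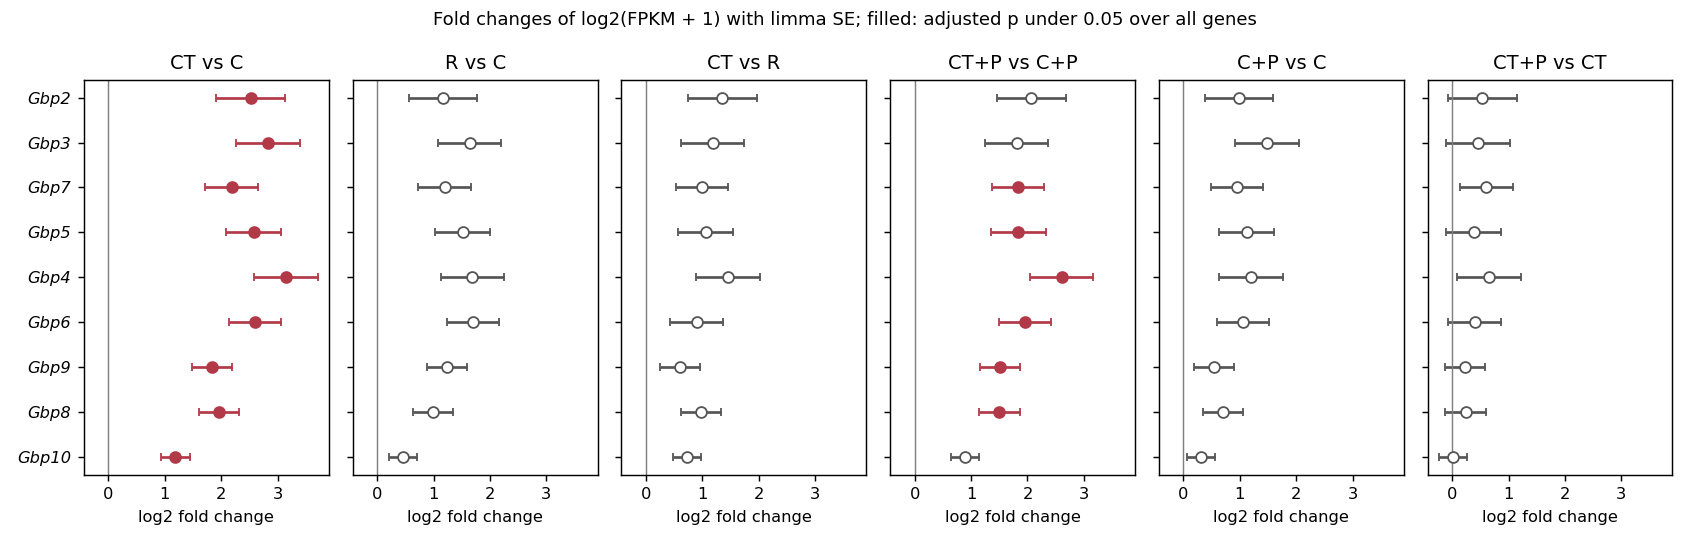
Log2 fold change of log2(FPKM + 1) for the 9 genes tested, with bars of 1 SE from limma, in 6 comparisons named by the group abbreviations C, R, CT and +P (anti-PD-1); filled red points passed an adjusted p of 0.05. All 9 are filled for cryo-thermal therapy against cryoablation, 6 for the same pair with anti-PD-1, and 0 in the other panels, where nearly every point lies to the right of 0.

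The radiofrequency tumours lay between the other groups and spread widely. Compared with cryoablation, all 9 genes had a higher mean after radiofrequency, with a median log2 fold change of 1.24 (range 0.46 to 1.70) and SE from 0.25 to 0.61. None passed the limma test (adjusted p from 0.152 to 0.400), where 0.00794% of all genes tested passed as higher and 0% as lower. Without adjustment 7 of 9 had a p under 0.05, against 15.1% of all genes in either direction. Values did not overlap for 8 of the 9, against 10.6% of all genes as higher and 12.2% as lower. Gbp2 stood at 135, 171 and 31.6 FPKM in the radiofrequency tumours, Gbp4 at 9.23, 13.5 and 3.77 FPKM, and Gbp9 at 12.7, 17.1 and 7.92 FPKM. Replicate 3 was the lowest of the group for all 10 genes, and for Gbp2 it fell within the range of the cryoablation tumours. The median change was 1.91 without it.

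Cryo-thermal therapy compared with radiofrequency gave a median log2 fold change of 0.99 (range 0.60 to 1.46) in favour of cryo-thermal therapy. Here too 0 of 9 genes passed limma (adjusted p from 0.267 to 0.449), where 0.00794% of all genes passed as higher and 0% as lower. At an unadjusted p under 0.05 there were 6 of 9, against 13.6% of all genes. Values did not overlap for 7 of the 9, against 8.08% of all genes as higher and 7.59% as lower, and overlapped for Gbp8 and Gbp9. Gbp8 was at 1.93, 3.04 and 0.893 FPKM after radiofrequency, so that its highest tumour slightly exceeded the lowest cryo-thermal tumour. The median was 0.61 without radiofrequency replicate 3 and 1.27 without replicate 2. Gbp3 was at 33.4, 39.9 and 11.7 FPKM, Gbp5 at 14.0, 19.1 and 5.34 FPKM and Gbp7 at 23.6, 28.7 and 10.2 FPKM, in each case below every cryo-thermal tumour. Gbp6 was at 11.0, 15.3 and 6.86 FPKM and Gbp10 at 0.669, 0.667 and 0.289 FPKM. Gbp2b was at 0.188, 0.475 and 0.0271 FPKM, from 21, 52 and 3 fragments.

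With anti-PD-1 in both groups, cryo-thermal therapy again gave higher levels than cryoablation. Of the 9 genes 6 passed, Gbp4 to Gbp9, all higher, beside 3.24% of all genes higher and 0.818% lower. The median log2 fold change was 1.84, against 0.01 over all genes, and the tumours did not overlap for any of the 9 (15.5% of all genes as higher and 10.4% as lower). After cryoablation with anti-PD-1, Gbp4 stood at 16.0, 4.44 and 1.78 FPKM, and after cryo-thermal therapy with anti-PD-1 at 31.6, 40.1 and 41.9 FPKM. Replicate 1 of the cryoablation plus anti-PD-1 tumours was the highest of its group and replicate 3 the lowest for all 10 genes, while the cryo-thermal plus anti-PD-1 tumours were close together. Gbp4 changed by 2.60 (SE 0.56, limma adjusted p = 0.0255).

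Gbp9, at 14.1, 6.33 and 3.79 FPKM and then 18.2, 23.6 and 25.0 FPKM, changed by 1.51 (SE 0.35, limma adjusted p = 0.0318). Gbp6, at 16.8, 5.03 and 2.69 FPKM and then 23.7, 29.4 and 29.5 FPKM, changed by 1.95 (SE 0.46, limma adjusted p = 0.0332). Gbp8, at 2.94, 0.903 and 0.632 FPKM and then 3.81, 6.40 and 6.83 FPKM, changed by 1.50 (SE 0.36, limma adjusted p = 0.0332). In each of these the cryoablation tumour nearest to the cryo-thermal ones was replicate 1. Gbp7 went from 33.8, 16.3 and 7.22 FPKM to 50.5, 66.9 and 63.6 FPKM (1.84, SE 0.46, limma adjusted p = 0.0404). Gbp5 went from 18.7, 7.45 and 4.07 FPKM to 27.8, 35.9 and 35.1 FPKM (1.84, SE 0.48, limma adjusted p = 0.0471), the weakest of the 6 calls. It was lost in 12 of the 16 alternatives run.

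The 3 genes that did not pass had values of similar size. Gbp2 was at 203, 66.1 and 37.6 FPKM after cryoablation with anti-PD-1 and at 322, 341 and 352 FPKM after cryo-thermal therapy with anti-PD-1, a log2 fold change of 2.07 (limma adjusted p = 0.0692). Gbp3 was at 55.0, 22.5 and 8.79 FPKM and at 73.0, 85.9 and 84.4 FPKM (1.81, limma adjusted p = 0.0827). Gbp10 was at 0.982, 0.187 and 0.118 FPKM and at 1.19, 1.76 and 1.79 FPKM (0.89, limma adjusted p = 0.0593). For all 3 genes replicate 1 after cryoablation lay several times above replicate 3, and below every cryo-thermal tumour. Gbp2b, not tested, was at 0.538, 0.0365 and 0.0358 FPKM after cryoablation with anti-PD-1, from 59, 4 and 4 fragments, and its replicate 1 exceeded every cryo-thermal tumour with antibody.

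These 6 calls rested on single tumours. The number passing was 0 without replicate 2 or replicate 3 of either group, when 2 to 17 of all genes passed. It was 9 without cryoablation plus anti-PD-1 replicate 1 and 5 without cryo-thermal plus anti-PD-1 replicate 1. It was 0 with no filter on low genes and 0 when the fit held only the groups compared. Without the 3 tumours richest in hair follicle RNA it was 7, with a median of 3.01 in place of 1.84, from 1 cryoablation tumour that is assumed to vary like the others.

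Against radiofrequency with anti-PD-1, cryo-thermal therapy with anti-PD-1 had a median log2 fold change of 1.06 (range 0.26 to 1.54) and 0 of 9 genes passed limma (adjusted p from 0.173 to 0.654). After adjustment 0.818% of all genes were called higher and 0.493% lower. At an unadjusted p under 0.05 there were 5 of 9, against 17.2% of all genes. Values did not overlap for 8 of 9, with Gbp10 the exception (11.8% of all genes as higher and 11.1% as lower). Radiofrequency with anti-PD-1 gave 205, 78.5 and 229 FPKM for Gbp2, 14.4, 6.17 and 20.2 FPKM for Gbp4 and 11.7, 8.30 and 16.1 FPKM for Gbp9. Replicate 2 was the lowest and replicate 3 the highest for all 10 genes. Without replicate 2 the median was 0.65, and without the tumour richest in hair follicle RNA it was 1.16, with 0 passing. Gbp3 was at 48.3, 19.9 and 54.3 FPKM, Gbp5 at 19.4, 8.73 and 24.9 FPKM and Gbp7 at 34.0, 14.0 and 34.5 FPKM. Gbp6 was at 14.3, 6.84 and 20.2 FPKM and Gbp8 at 2.39, 1.61 and 3.57 FPKM, again below every cryo-thermal tumour with antibody. Gbp2b was at 0.254, 0.124 and 0.410 FPKM, which overlapped the cryo-thermal tumours with antibody. Gbp10 was at 0.865, 0.621 and 2.26 FPKM, and its replicate 3 was above every cryo-thermal tumour, with or without antibody.

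Radiofrequency and cryoablation, both with anti-PD-1, were not told apart. The median log2 fold change was 0.72 (range 0.57 to 1.06, SE from 0.25 to 0.61), 0 of 9 passed limma (adjusted p from 0.840 to 0.886), and 0% of all genes passed in either direction. Gbp10 alone had an unadjusted p under 0.05, which 5.85% of all genes had. The tumours overlapped for all 9 genes, while 6.03% of all genes were higher without overlap and 3.37% lower. Without cryoablation plus anti-PD-1 replicate 1 the median was 1.34, without its replicate 3 it was 0.40, and without the tumours richest in hair follicle RNA it was 1.77.

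Adding anti-PD-1 to an ablation moved none of the 9 genes past the threshold. Added to cryoablation, the antibody gave a median log2 fold change of 0.99 (range 0.31 to 1.48), with limma adjusted p from 0.129 to 0.481, beside 1.79% of all genes called higher and 2.53% lower. At an unadjusted p under 0.05 there were 4 of 9, against 24.4% of all genes. The tumours overlapped for 8 of the 9, and not for Gbp8 (13.6% of all genes were higher without overlap and 18.0% lower). Replicate 1 with the antibody decided much of the difference. The median was 0.41 without that tumour, 1.52 without replicate 3 and 0.01 without the tumours richest in hair follicle RNA, which leaves 1 tumour with the antibody, assumed to vary like the other groups.

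Added to radiofrequency, it gave a median of 0.48 (range -0.04 for Gbp9 to 0.77 for Gbp2), with 0 of 9 past limma's threshold, and adjusted p from 0.461 to 0.975, where 0.0318% of all genes passed as higher and 0.0159% as lower. At an unadjusted p under 0.05 there were 0 of 9, against 11.6% of all genes. All 9 genes overlapped, where 7.66% of all genes were higher without overlap and 7.19% lower. The median was -0.00482 without radiofrequency replicate 3, 0.81 without replicate 2 of the tumours with antibody and 0.18 without their replicate 3. Added to cryo-thermal therapy, it gave a median of 0.40 (range 0.01 to 0.66, SE from 0.25 to 0.61), with 0 of 9 past limma's threshold, and adjusted p from 0.600 to 0.987, beside 0.246% of all genes as higher and 0.127% as lower. Again 0 of 9 had an unadjusted p under 0.05, against 13.0% of all genes. The median was 0.65 with replicate 1 of cryo-thermal therapy alone left out, and 0.50, with 0 passing, without the tumour richest in hair follicle RNA. Gbp2 was the 1 gene without overlap, against 10.6% of all genes as higher and 9.20% as lower, with 298, 215 and 198 FPKM alone and 322, 341 and 352 FPKM with the antibody. The tumours with the antibody were the tighter group for Gbp2 and for the family sum.

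Gbp2b and Gbp10 had other patterns on adding the antibody to cryo-thermal therapy. Gbp2b had 221 fragments over the 3 tumours without antibody and 69 over those with it, a ratio of 0.314 with a 95% interval for counting error from 0.236 to 0.414. Its tumours were at 1.44, 0.313 and 0.253 FPKM alone and at 0.134, 0.249 and 0.246 FPKM with the antibody, so the tumours did not overlap. The nearest tumours had 28 and 27 fragments, replicate 1 of cryo-thermal therapy alone carried most of the difference, and no test was made. Gbp10 had 634 and 632 fragments in the same groups, a ratio of 1.00 (0.897 to 1.12).

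Averaged over the 3 ablations, anti-PD-1 gave a median log2 fold change of 0.65. By limma 0 of 9 genes passed (adjusted p from 0.108 to 0.460), beside 5.28% of all genes higher and 4.75% lower. An unadjusted p under 0.05 was given by 5 of 9, against 28.5% of all genes. Without cryoablation plus anti-PD-1 replicate 3, 3 genes passed, and without the tumours richest in hair follicle RNA the median was 0.34. The antibody's change did not differ detectably between ablations. For cryo-thermal therapy minus cryoablation the median difference was -0.46 (range -1.02 to -0.29, SE from 0.36 to 0.86), and 0 of 9 passed limma (adjusted p from 0.615 to 0.861), where 0.111% of all genes were higher and 0.0556% lower. For cryo-thermal therapy minus radiofrequency and radiofrequency minus cryoablation the medians were -0.04 and -0.59, with 0 of 9 passing in each, where 0% of all genes passed. None of the 9 had an unadjusted p under 0.05 in any of the 3 differences, against 13.4%, 7.23% and 7.60% of all genes in the order given, and the SE leave room for differences as large as the changes themselves. The first median lay between -0.99, without replicate 3 of cryoablation plus anti-PD-1, and -0.01, without its replicate 1, and was 0.44, with the sign turned, without the tumours richest in hair follicle RNA. The second median turned sign too, lying between -0.37, without replicate 2 of radiofrequency plus anti-PD-1, and 0.58 over the alternatives run, and was 0.44 without radiofrequency replicate 3 and 0.18 without the tumours richest in hair follicle RNA. The third lay between -1.08, without replicate 3 of cryoablation plus anti-PD-1, and 0.34, without the tumours richest in hair follicle RNA.

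The 9 genes moved together from tumour to tumour. Over the 18 tumours, Pearson's r between log2 levels of pairs of genes ran from 0.913 to 0.992, with a median of 0.974 over 36 pairs. After subtraction of each group's mean it ran from 0.759 to 0.985, with a median of 0.940, so that the pairs also moved together among tumours of the same treatment. The lowest pairs all held Gbp10, the gene with the fewest fragments of the 9. These values describe tumours that share their groups and libraries and carry no p. The median change between cryo-thermal therapy and cryoablation was 2.55 for the 4 genes tested on chromosome 3 and 1.96 for the 5 on chromosome 5, where the lower genes Gbp8 and Gbp10 lie.

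The make-up of the family is described by shares of the summed FPKM, without a test. Gbp4 and Gbp9 are shown out of the 10 genes. Gbp4 made up 2.57 ± 0.546% (SD, n = 3) of the summed FPKM after cryoablation, 4.32 ± 0.494% after radiofrequency and 5.53 ± 0.651% after cryo-thermal therapy. With anti-PD-1 its share was 3.51 ± 0.879%, 4.45 ± 0.461% and 6.21 ± 0.424% in the same order. The share was at most 3.09% in the cryoablation tumours and at least 4.98% in the cryo-thermal tumours, without overlap. Gbp9 went the other way, from 6.67 ± 0.547% after cryoablation to 4.42 ± 0.581% after cryo-thermal therapy, and it was 3.65 ± 0.317% when the antibody was added to the latter. Its tumours too did not overlap between cryoablation, at least 6.05%, and cryo-thermal therapy, at most 5.09%. Between the same groups the Gbp2 shares overlapped, at 56.5 to 61.7% and 51.5 to 56.8%. So did the Gbp3 shares, at 10.1 to 12.5% and 12.2 to 15.8%, while the Gbp6 shares did not, at 2.92 to 4.42% and 4.69 to 5.02%. A share of the family sum has no counterpart over all genes, so no such figure stands beside these. The radiofrequency tumours had a Gbp9 share of 5.23, 5.55 and 10.1%, with a mean of 6.95 ± 2.71%. The last was replicate 3, in which Gbp2 had its lowest share. Among the tumours of each cryoablation and each cryo-thermal group the Gbp4 share rose with the family sum. With cryoablation plus anti-PD-1 it was 4.42, 3.43 and 2.67% at sums of 362, 129 and 66.7 FPKM. Within the radiofrequency groups it did not follow the sum. Radiofrequency replicate 3, with a family sum of 78.6 FPKM, had a Gbp4 share of 4.80%, the highest of its group. Its Gbp2 share was 40.2%, and a low Gbp2 share raises the shares of the other genes. In cryoablation replicate 3, with a sum of 79.4 FPKM, the Gbp4 share was 2.62%.

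**Figure D3:**
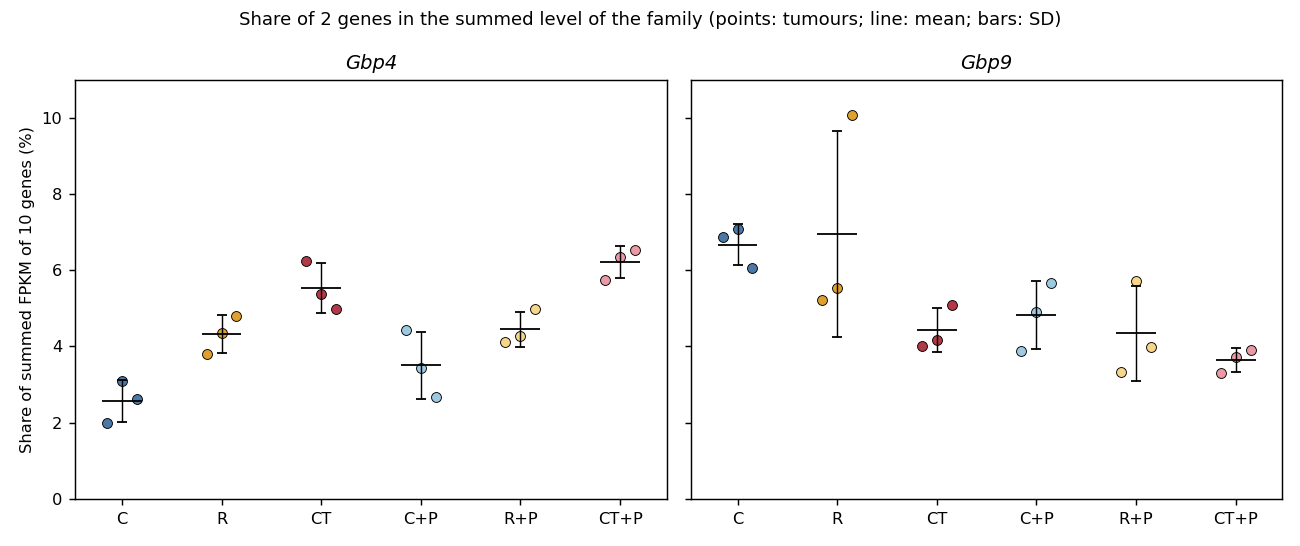
Share of Gbp4 and of Gbp9, in percent, in the summed FPKM of the 10 genes; points are tumours, lines are means and bars are SD (n = 3), with groups abbreviated C, R, CT and +P (anti-PD-1). Gbp4 is at most 3.09% after cryoablation and at least 4.98% after cryo-thermal therapy. Gbp9 lies higher after cryoablation than after cryo-thermal therapy, and 1 radiofrequency tumour is at 10.1%.

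Some of the genes share sequence, which limits how their reads can be told apart. Of windows of 75 bases in the longest coding transcript (GENCODE M21), 63.9% of those of Gbp10 and 53.2% of those of Gbp6 also occurred in another gene of the family, against at most 7.71% for the other 8 genes. With any gene of that annotation the share was 75.5% for Gbp10 and 86.0% for Gbp6, mostly with Gm43302, a gene model not analysed here, and 11.4% for Gbp7. Values for Gbp6 and Gbp10 are therefore uncertain between copies. Gbp4, Gbp8 and Gbp9, the chromosome 5 genes with little shared sequence, passed in the same comparisons as Gbp6. That does not show how the reads of Gbp6 were assigned.

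The genes upstream of the family and their relatives were read from lists of the pathway. Of the ligands, Ifng, which encodes interferon gamma, was the 1 of 4 listed that passed the filter, through the groups where it was high, since its mean was 0.0505 FPKM after cryoablation and below 0.5 FPKM in 2 more groups. It stood at 0.108, 0 and 0.0436 FPKM after cryoablation and at 2.19, 1.18 and 0.455 FPKM after cryo-thermal therapy, and rose by 1.04 (SE 0.26, limma adjusted p = 0.0165). Radiofrequency gave 0.300, 0.350 and 0.0432 FPKM. With anti-PD-1, Ifng stood at 1.05, 0.109 and 0.0858 FPKM after cryoablation, 0.870, 0.468 and 0.743 FPKM after radiofrequency and 3.56, 3.66 and 2.62 FPKM after cryo-thermal therapy. The last group was above every other tumour of the series. Ifng was higher there than after cryoablation with anti-PD-1 (1.66, limma adjusted p = 0.0101) and than after radiofrequency with anti-PD-1 (1.34, adjusted p = 0.0362), and the antibody's mean effect on it over the 3 ablations was 0.60 (adjusted p = 0.0223). The call against cryoablation was lost without replicate 2 or 3 of the cryoablation tumours with antibody, or without replicate 2 of the cryo-thermal ones. The call against radiofrequency was lost without replicate 2 or 3 of the radiofrequency tumours with antibody and without any 1 of the 3 cryo-thermal ones, and the mean effect was lost without the tumours richest in hair follicle RNA. Without cryo-thermal replicate 1 or 2, or cryoablation replicate 1, the call without antibody was lost, with adjusted p up to 0.0916. Over all alternatives run, the Ifng call against cryoablation was lost in 4 of 15 without antibody and 4 of 15 with it. The call against radiofrequency with antibody was lost in 7 of 15 and the mean effect in 2 of 26.

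Of the 4 receptor chains 0 passed in either comparison of cryo-thermal therapy with cryoablation. Of all genes tested, 8.01% were called higher and 6.96% lower without antibody, and 3.24% and 0.818% with it. Stat2, a factor of the type I interferon response, rose by 1.46 without antibody, and Stat3 rose by 0.60 with it. The receptor chain Ifngr1 was lower on average with the antibody (log2 fold change -0.26, limma adjusted p = 0.0156), a call lost without the tumours richest in hair follicle RNA. Of 7 interferon regulatory factors 5 rose without antibody, with Irf7 at 2.50, Irf8 at 1.53 and Irf9 at 1.20, and 4 rose with it, with Irf1 at 1.39, Irf8 at 1.27 and Irf2 at 0.43. Irf1, itself an interferon gamma target that acts on family promoters, was at 29.8, 36.9 and 32.7 FPKM after cryoablation and at 93.5, 79.7 and 74.1 FPKM after cryo-thermal therapy (1.29, limma adjusted p = 0.0169). No tumours of these groups overlapped for Irf1. The Irf1 call was lost without cryoablation replicate 1 or without cryo-thermal replicate 1 or 2.

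The next lists stand beside the same shares of all genes, 8.01% higher and 6.96% lower without antibody and 3.24% and 0.818% with it. Of 5 genes listed as feedback inhibitors 3 rose without antibody, Isg15 by 2.42, Usp18 by 2.20 and Socs1 by 0.86. With antibody 2 of the 5 rose, Socs1 by 1.28 and Socs3 by 0.50. The immunity-related GTPases, smaller relatives that act on the same vacuoles, rose in 7 of 7 tested without antibody, from 1.35 to 3.56, with Iigp1 at 3.52, Igtp at 3.07 and Irgm2 at 2.61. With antibody 5 of 7 passed, with Irgm2 at 2.02, Irgm1 at 1.86 and Ifi47 at 1.65. All 3 very large interferon-induced GTPases tested rose without antibody, Gvin2 by 1.02, Gvin1 by 0.93 and Gvin3 by 0.50, and 1, Gvin2, with it (1.02). Gvin1 and Gvin2 passed the filter through the groups where they were higher, with means of 0.0729 and 0.0993 FPKM after cryoablation. Atlastins are structural relatives of the family that shape the endoplasmic reticulum. Of 3 atlastins 0 rose and 1, Atl3, fell by 0.53 on the log2 scale without antibody. Of 8 inflammasome and pyroptosis genes 2 rose without antibody, Casp1 by 1.21 and Nlrp3 by 0.44, and 2 with it, Casp4 by 0.94 and Gsdmd by 0.60. Casp4 encodes the caspase that senses lipopolysaccharide and Gsdmd the pore protein that it cleaves. With antibody, every call on a gene named from these lists in the comparison with cryoablation was lost without replicate 2 or 3 of the cryoablation tumours or replicate 2 of the cryo-thermal tumours. Without antibody, the calls on Gvin1, Gvin2, Gvin3, Socs1, Nlrp3 and Atl3 were lost without cryo-thermal replicate 1, and those on Gvin3, Socs1, Nlrp3 and Atl3 also without cryoablation replicate 1. Over all alternatives run, those on Gvin3 and Nlrp3 were each lost in 8 of 15, and that on Socs1 in 5 of 16. With antibody the call on Socs3 was lost in 12 of 16.

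Across the 18 tumours genes whose log2 level was among the most like the mean of the 9 were Irgm2 (Pearson's r = 0.996), Igtp (0.994), Irgm1 (0.993), Iigp1c (0.991), Tgtp2 (0.991), Tap1 (0.990), Iigp1 (0.990), Psmb9 (0.987) and Tgtp1 (0.984), out of 12578 genes. Of these 9 genes 7 are immunity-related GTPases, and Tap1 and Psmb9 belong to peptide transport and the immunoproteasome. Irf1 had an r of 0.983 and ranked 13, while Ifng had 0.856 and ranked 297. After subtraction of group means, r was 0.977 for Irf1 and 0.709 for Ifng. Ifng lay near the floor, at 0 to 3.66 FPKM, where few fragments and the added 1 FPKM weigh most. Irf1 lay at 29.3 to 126 FPKM. The difference between their r was not tested. The tumours share their groups, so these values are descriptions with no p.

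**Figure D4:**
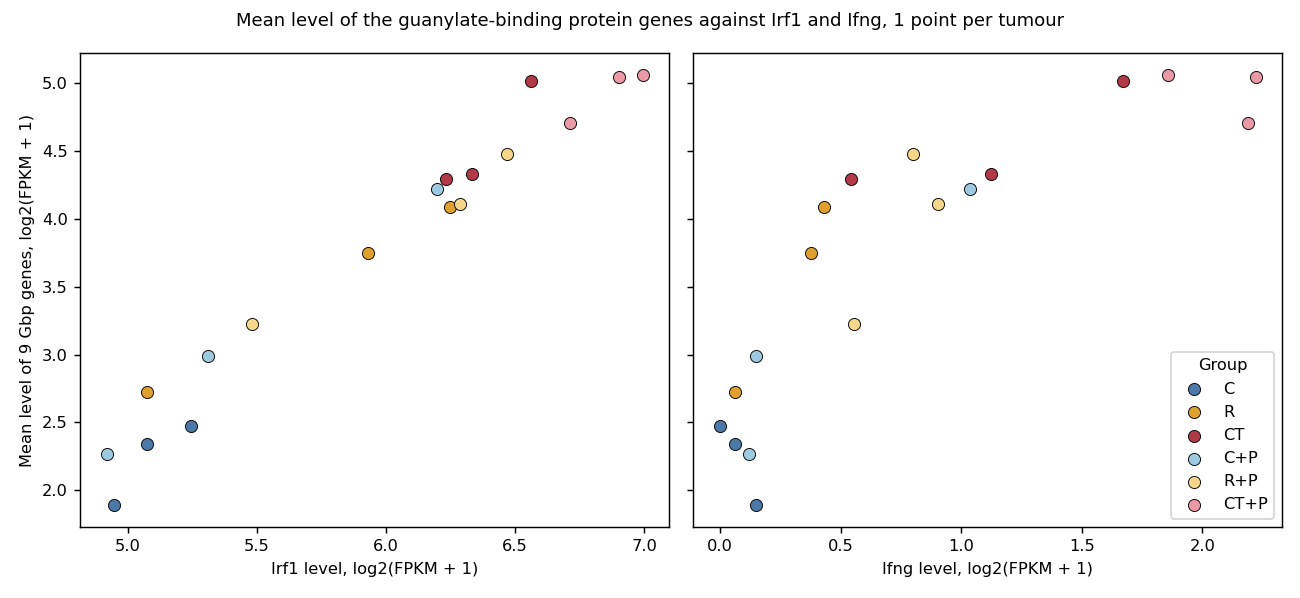
Mean log2(FPKM + 1) of the 9 genes tested against the log2(FPKM + 1) of Irf1 (left) and of Ifng (right), 1 point per tumour, coloured by group (C, R, CT and +P for anti-PD-1). The points lie close to a line for Irf1 (r = 0.983), and scatter more for Ifng (r = 0.856). Ifng was listed at 0 in 1 tumour and was at most 3.66 FPKM.

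Markers of several immune cells were also higher after cryo-thermal therapy, though not in every comparison. Of 12 T cell markers 9 were in the table, and their summed level was 2.59 to 3.50 FPKM after cryoablation, 5.84 to 13.1 after radiofrequency and 13.5 to 42.4 after cryo-thermal therapy. With anti-PD-1 it was 5.96 to 25.0, 9.23 to 18.2 and 39.9 to 43.6 FPKM, and none of the 9 was at 0 in a whole group. Macrophage and monocyte markers (11 of 11) summed to 369 to 461 FPKM after cryoablation and 512 to 878 after cryo-thermal therapy, dendritic cell markers (6 of 6) to 2.31 to 3.92 and 6.00 to 12.1, NK cell markers (5 of 5) to 2.11 to 2.72 and 3.47 to 7.84, and B and plasma cell markers (5 of 5) to 0.0954 to 0.351 and 1.07 to 6.07. With anti-PD-1 the NK cell sums did not overlap, at 2.07 to 4.12 FPKM after cryoablation and 5.78 to 6.59 after cryo-thermal therapy. Macrophage and monocyte sums overlapped, at 376 to 565 and 517 to 694 FPKM in the same order. So did dendritic cell sums, at 4.06 to 10.7 and 8.99 to 16.6 FPKM, and B and plasma cell sums, at 0.619 to 2.00 and 0.714 to 1.24 FPKM. Neutrophil markers (6 of 6) ran the other way, from 108 to 266 FPKM down to 5.16 to 39.0, as did erythroid markers (5 of 5), from 557 to 772 down to 23.6 to 210.4. With anti-PD-1 they did not: neutrophil sums were 22.8 to 83.4 FPKM after cryoablation and 25.1 to 382 after cryo-thermal therapy, and erythroid sums 53.0 to 104 and 80.9 to 316, with overlap in both. Epithelial sums were 3.47 to 4.02 FPKM after cryoablation and 2.52 to 2.99 after cryo-thermal therapy, and 4.73 to 5.00 and 6.00 to 7.74 with anti-PD-1. The tumour that stood highest for the family within cryoablation plus anti-PD-1, replicate 1, also had the highest T cell sum of that group, 25.0 FPKM. Within radiofrequency the order differed. Replicate 1 had a family sum of 242 FPKM and a T cell sum of 5.84 FPKM, against 78.6 and 7.28 FPKM in replicate 3. The part of these cells in the family's differences was not tested.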

How the data were processed

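RNA from 18 untreated mouse tumours was extracted with TRIzol and silica columns and made into libraries with the VAHTS Universal V6 kit, per the labels' protocols. The authors deposited FPKM values per gene. The submitters' processing notes name HTSeq 0.11.2; the aligner, genome build, strand setting and normalization are not given in the sources used here. Members and gene lists were chosen with earlier results of these data known.

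Deposited FPKM values were tested as log2(FPKM + 1) with limma 3.58.1 in R 4.3.3: a mean per group over all 18 tumours, trended variances, 13 comparisons, 2-sided, Benjamini-Hochberg over the 12587 genes whose FPKM averaged 0.5 or more, threshold 0.05. The fit was tested on simulated data. Besides the 10 family genes, Ifng and Irf1 were named, up to 3 passing genes of each pathway list with the smallest adjusted p per comparison, and the 10 genes most correlated with the family; 1 gene that this rule names is not reported here. Correlations were computed in Python 3.11.15 with pandas 2.3.3 and numpy 2.4.6, and plots with matplotlib 3.10.9. Fragments were recovered from the smallest common step of each family gene's values. Intervals cover counting error only. With 3 tumours against 3 an exact permutation test cannot go below p = 0.1, so none was used. Alternatives were a pseudocount of 0.1, no filter or a mean of at least 2, median-ratio scaling, quantile normalization, only the groups compared, the replicate number as a block, array weights, a robust trend and each tumour left out. Leaving out the 3 tumours with a hair follicle level above 3 was chosen after seeing the data.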

Additional observations from a re-analysis of the deposited data

How the results depend on the processing

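No family gene changed direction under any alternative where it had passed. For cryo-thermal therapy against cryoablation without antibody, 8 genes passed where a mean of at least 2 FPKM was required, which Gbp10 and Gbp2b miss, and 9 under the other alternatives that left out no single tumour. The count was 6 to 9 when 1 tumour was left out. With anti-PD-1 in both groups the 6 genes became 0 with no filter on low genes, 0 with only the groups compared, and 0 to 9 when 1 tumour was left out. With array weights, which down-weight variable tumours, 6 genes passed for radiofrequency against cryoablation, 6 for cryo-thermal therapy against radiofrequency with antibody, and 7 for anti-PD-1 added to cryo-thermal therapy, where 0 had passed. The same weights called 4.54%, 17.1% and 42.4% of all genes in these comparisons. Their estimation stopped before it reached limma's convergence tolerance. The mean effect of anti-PD-1 over the 3 ablations gave 0 to 3 genes when 1 tumour was left out. In the other 7 comparisons the count was 0 under every alternative run. Fewer tumours make a weaker test; the cause of the other changes was not tested.

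Replicate numbers did not pair the tumours: of 45 pairs with the same number in different groups, 13 deviated together with r above 0.1 and 13 correlated best with their own number (median r -0.000676, range -0.47 to 0.59). With the replicate block, 9 genes passed for cryo-thermal therapy against cryoablation and 5 of the 6 with anti-PD-1 in both groups; the other counts stayed at 0. The fit with only the groups compared equals the main one for the mean over 3 ablations and was not run. Gbp2b, Gbp10 and Gbp8 are limited by few fragments, with 0, 3 and 49 in their lowest tumours. For Gbp10, 75.5% of windows of 75 bases also occur in other genes, and whether that lowered its count was not tested.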
